A study of Arabidopsis thaliana with 12 samples.

Results

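The comparison described here asks where 2 Arabidopsis thaliana mutants, gun1-1 and abi4-102, respond differently to lincomycin. For each probe set, the response in gun1-1 (with minus without lincomycin) was set against the response in abi4-102, and the gun1-1 response minus the abi4-102 response is called the difference of response. A positive difference means a higher response in gun1-1, which can be a stronger rise or a weaker fall. The groups were taken from the sample titles and use 8 of the 12 arrays of the series: gun1-1 with lincomycin, gun1-1 without lincomycin, abi4-102 with lincomycin and abi4-102 without lincomycin, with 2 Affymetrix ATH1 arrays each. All 4 groups were whole seedlings of ecotype Col-0, 5 days old, grown at 21 °C in light/dark cycles at 20 µmol per square metre and second, on half-strength Murashige Skoog medium containing 1% sucrose. The 4 arrays of Col-0, the accession in which both mutants were studied, with and without the drug, are given beside them only where said. They do enter the estimate of spread behind each p-value. The labels do not say whether the 2 samples of a group were grown as separate cultures. A p-value here reflects the spread between the 2 samples of a group, estimated over all 6 groups of the series. For each probe set that spread is also drawn toward that of the other probe sets. It may be technical.

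Lincomycin blocks translation by plastid ribosomes. When plastids are damaged in this way early in seedling growth, nuclear genes for photosynthesis proteins are normally turned down, a form of plastid-to-nucleus communication known as retrograde signalling. GUN1 is a pentatricopeptide repeat protein of the plastid, and gun (genomes uncoupled) mutants are known for keeping such nuclear genes active when plastids are damaged. ABI4 is a nuclear transcription factor of the AP2 family, known from abscisic acid and sugar responses, which has been placed in the same signalling route. Transcripts of GUN1 and ABI4 were not analysed here and leave the genotype labels unchecked.

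The values are the authors' RMA log2 values, on which 1 unit is a 2-fold change. Replicates of a group correlated at r = 0.9903 to 0.9945 across probe sets, which are not independent, and the array medians of these 8 arrays lay between 5.44 and 5.51. On the leading principal component of these arrays, which held 40.9% of the variance, the gun1-1 arrays with lincomycin lay at 12.1 and 14.8 and those without at -30.3 and -32.0, while the abi4-102 arrays with lincomycin lay at 37.9 and 34.7 and those without at -18.2 and -19.0. The arrays with lincomycin therefore stood apart from those without in both mutants, and farther along this component in abi4-102. On the next component, with 28.3% of the variance, the gun1-1 arrays lay at -31.0 and -37.3 with lincomycin and at -1.3 and -6.7 without it. The abi4-102 arrays with lincomycin, at 22.9 and 15.1 there, overlapped those without it, at 17.4 and 21.0. The leading component alone thus does not rank the size of the 2 responses. Of the marker lists, root markers moved most between replicates: the median of EXPA7 and EXPA18, expansins of root hairs, was 6.14 and 5.00 in gun1-1 with lincomycin and 4.84 and 4.81 in gun1-1 without it, against 5.20 and 5.04 in abi4-102 with lincomycin and 4.92 and 5.38 in abi4-102 without it. Their part in any result was not tested. Of the markers listed, 2 of 13 root, 3 of 12 epidermis and stomata, 1 of 8 meristem and 1 of 13 seed reserve loci were measured. Of the 8 vascular markers, 0 were. Measured here means that a probe set names that gene alone in the annotation used, so other markers may sit on unnamed probe sets. None of those measured had a called difference, beside 0.532% of all probe sets. So few markers cannot show whether the mix of cell types differed between groups.

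Of 22746 probe sets, 121 (0.532%) had a difference of response at a Benjamini-Hochberg adjusted p under 0.05 (limma). The response was higher in gun1-1 for 88 of them (0.387%) and lower for 33 (0.145%), and 2367 had an unadjusted p under 0.05. Lincomycin itself changed 2432 probe sets (10.7%) in gun1-1, with 1317 higher (5.79%) and 1115 lower (4.9%), and 2993 (13.2%) in abi4-102, with 1739 higher (7.65%) and 1254 lower (5.51%). Between the mutants with lincomycin, 2478 (10.9%) differed, 1370 higher (6.02%) and 1108 lower (4.87%) in gun1-1. Without lincomycin 48 (0.211%) differed, 18 higher (0.0791%) and 30 lower (0.132%) in gun1-1. The count of 121 and its balance depended on single arrays. It was 54 (29 higher and 25 lower) without gun1-1 -lincomycin replicate 1, 39 (21 and 18) without gun1-1 +lincomycin replicate 1, and 28 (15 and 13) without abi4-102 -lincomycin replicate 1, so the excess of higher responses was nearly absent in these 3 fits. It was 22 (17 and 5) without abi4-102 +lincomycin replicate 1 and 20 (17 and 3) without abi4-102 -lincomycin replicate 2. For lincomycin in abi4-102, the split of higher and lower turned to 544 and 612 without abi4-102 -lincomycin replicate 2 and to 1017 and 1035 without abi4-102 +lincomycin replicate 2. One array, gun1-1 -lincomycin replicate 2, is tagged with all 3 genotypes although gun1-1 alone stands in its title, and 104 probe sets were called without it.

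**Figure D1:**
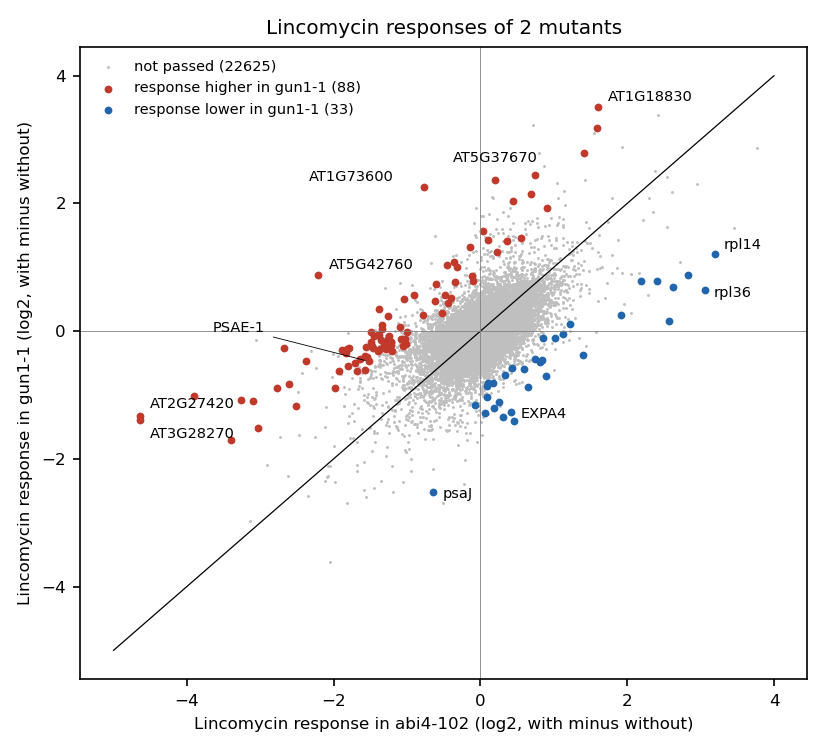
Lincomycin response in gun1-1 (vertical axis, log2) against that in abi4-102 (horizontal axis, log2) for each of 22746 probe sets, with the line of equal responses. The 88 red points (response higher in gun1-1) lie mostly left of 0, where the transcript fell in abi4-102, and the 33 blue points (response lower in gun1-1) lie below the line.

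The 88 probe sets with a higher response in gun1-1 were mainly transcripts that lincomycin lowered in abi4-102. In 45 the transcript fell in abi4-102 and did not pass the test in gun1-1, and in 17 it fell in both mutants. In 12 it rose in gun1-1 and did not pass in abi4-102, in 8 it rose in both, and in 6 it rose in gun1-1 and fell in abi4-102. The median response of the 88 was -0.12 in gun1-1 and -1.26 in abi4-102, and 73 of the differences were at least 2-fold. With lincomycin 87 of the 88 were higher in gun1-1, while without it 3 were higher, 2 were lower and 83 did not pass. The 88 were chosen by a difference that contains both of these comparisons on the same arrays. These counts therefore follow largely from that choice. Only 33 of the 88 name a gene in the array annotation used here, and the other 55 are counted without a name.

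AT2G27420 and AT3G28270 had the largest differences among genes named alone. AT2G27420 had log2 levels of 7.41 and 6.99 in gun1-1 with lincomycin and 8.50 and 8.56 without it, against 3.28 and 3.67 in abi4-102 with lincomycin and 8.16 and 8.08 without it. Its levels thus overlapped in no pair of groups, and the lowest were those of abi4-102 with lincomycin. The response was -1.33 in gun1-1 and -4.64 in abi4-102, a difference of 3.32 ± 0.22 (SE) with an adjusted p of 0.000201 in the limma fit. AT3G28270 had 7.96 and 7.99 in gun1-1 with lincomycin and 9.29 and 9.43 without it, against 3.81 and 3.97 in abi4-102 with lincomycin and 8.72 and 8.35 without it. It fell in both mutants, by 1.39 in gun1-1 and by 4.64 in abi4-102 (difference 3.26 ± 0.19, limma adjusted p = 6.91e-05). It was also 0.82 higher in gun1-1 than in abi4-102 without lincomycin (limma adjusted p = 0.035), one of the 3 of 88 for which that held. Both genes were called in all 8 fits that left out 1 array.

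AT1G73600 moved in opposite directions in the mutants. Its log2 levels were 7.41 and 7.88 in gun1-1 with lincomycin and 5.22 and 5.57 without it, against 4.54 and 4.78 in abi4-102 with lincomycin and 5.45 and 5.42 without it. Without lincomycin the mutants overlapped, and with it gun1-1 was higher and abi4-102 lower than either. The rise of 2.25 in gun1-1 and the fall of 0.78 in abi4-102 gave a difference of 3.03 ± 0.24 (limma adjusted p = 0.000725), called in all 8 fits that left out 1 array. Called responses of opposite sign were rare: 11 probe sets (0.0484%) had them, 6 (0.0264%) rising in gun1-1 and falling in abi4-102 and 5 (0.022%) the other way. AT5G17670, the other named gene of the 6, rose by 0.57 in gun1-1 and fell by 0.49 in abi4-102 (difference 1.06, limma adjusted p = 0.0332). That call held in 1 of the 8 fits that left out 1 array, with differences between 0.91 and 1.20. AT5G42760 fell by 2.21 in abi4-102, while its response of 0.88 in gun1-1 did not pass (difference 3.09 ± 0.39, limma adjusted p = 0.0119). Without abi4-102 -lincomycin replicate 1 its difference was 2.93 and its adjusted p 0.053.

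**Figure D2:**
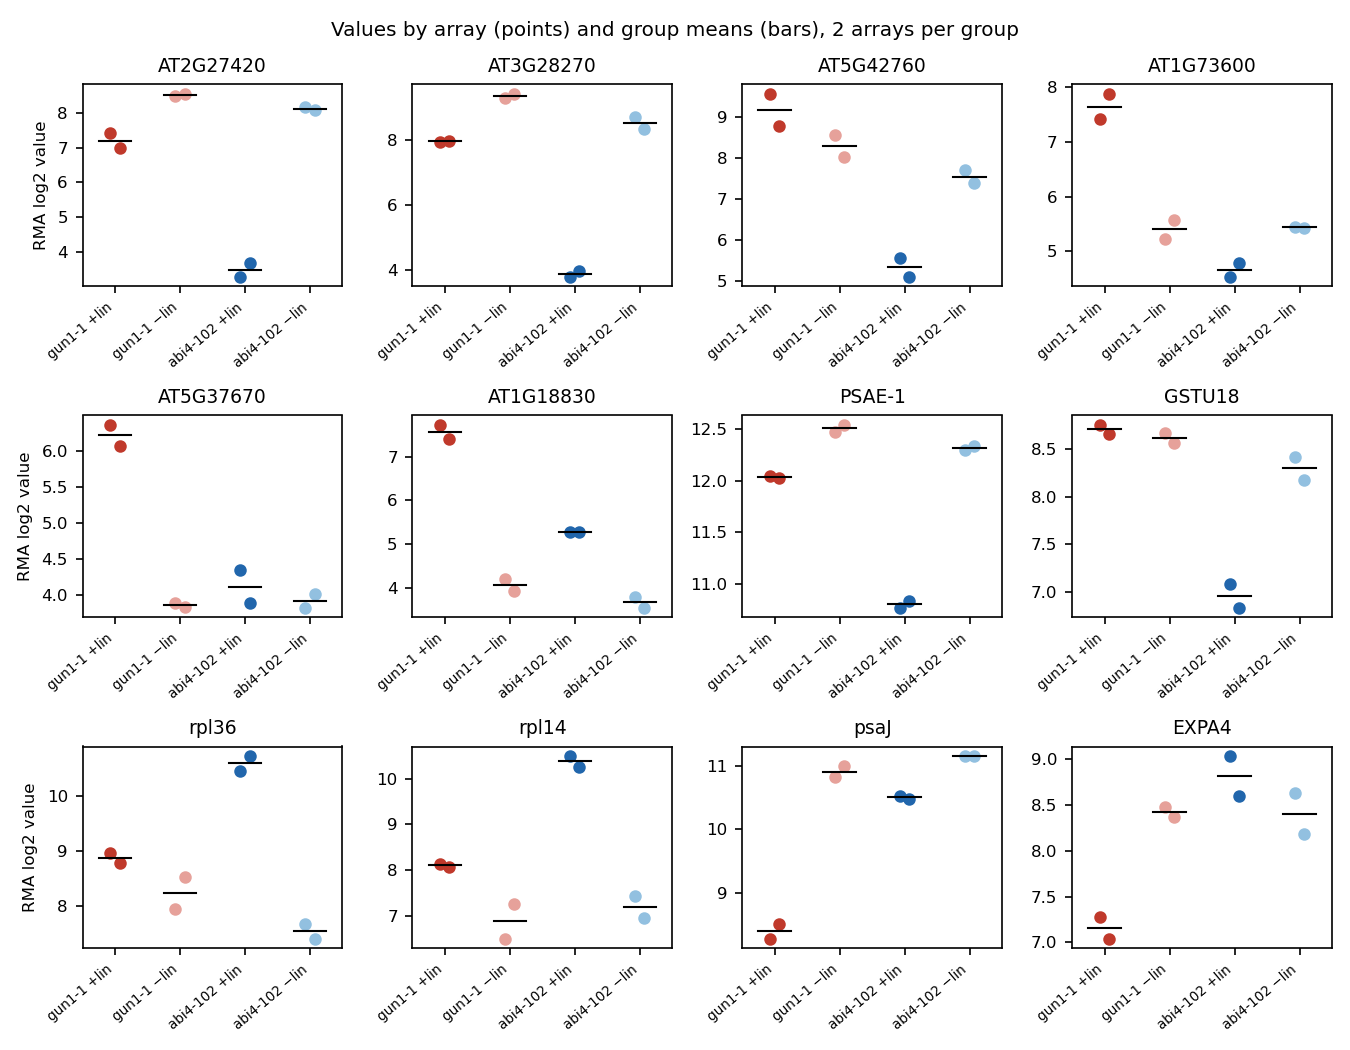
RMA log2 values of 12 genes on each array (points) with group means (bars), for gun1-1 with and without lincomycin and abi4-102 with and without lincomycin, 2 arrays per group, on vertical axes that do not start at 0. AT2G27420, AT3G28270, AT5G42760, PSAE-1 and GSTU18 have their lowest values in abi4-102 with lincomycin, while psaJ and EXPA4 have theirs in gun1-1 with lincomycin.

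A smaller group consisted of transcripts that lincomycin raised more in gun1-1. AT5G37670, a member of the heat shock list, had log2 levels of 6.37 and 6.07 in gun1-1 with lincomycin and 3.89 and 3.83 without it, against 4.35 and 3.88 in abi4-102 with lincomycin and 3.83 and 4.01 without it. Only the gun1-1 arrays with lincomycin stood apart, and the other 3 groups overlapped. Its response was 2.36 in gun1-1 and 0.19 in abi4-102, where it did not pass (difference 2.17 ± 0.24, limma adjusted p = 0.00761). The other 2 measured members of that list did not pass for the difference: AT1G53540 rose by 2.19 in gun1-1 and by 1.15 in abi4-102 (difference 1.05, limma adjusted p = 0.21), and ATHSP22.0 had a difference of 0.40. AT1G18830, which carries the synonym SEC31A and belongs to the endoplasmic reticulum stress list, had 7.74 and 7.42 in gun1-1 with lincomycin and 4.20 and 3.92 without it, against 5.27 and 5.27 in abi4-102 with lincomycin and 3.80 and 3.55 without it. It rose in both mutants, by 3.51 in gun1-1 and by 1.60 in abi4-102 (difference 1.91 ± 0.23, limma adjusted p = 0.0109). AT5G37670 and AT1G18830 were called in all 8 fits that left out 1 array.

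Of the 4 measured endoplasmic reticulum stress genes, AT1G18830 was the 1 called for the difference, beside 0.532% of all probe sets. BZIP60, a transcription factor of the unfolded protein response, rose in both mutants, by 1.32 in gun1-1 and by 0.69 in abi4-102, and its difference of 0.63 had a 95% interval of 0.25 to 1.01 (limma adjusted p = 0.17). ATERDJ3B, a luminal co-chaperone, rose by 0.70 in gun1-1 and had a response of 0.24 in abi4-102 that did not pass (difference 0.46, limma adjusted p = 0.27). BZIP28 had a difference of 0.05. BGLU25, a beta-glucosidase family member, rose by 3.19 in gun1-1 and by 1.59 in abi4-102 (difference 1.60 ± 0.26, limma adjusted p = 0.0252), a call that held in 2 of the 8 fits that left out 1 array. For these 2 lists the median difference was 1.05 over the 3 heat shock genes and 0.55 over the 4 endoplasmic reticulum stress genes, beside -0.04 over all probe sets.

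Of 22 measured nuclear genes for photosynthesis, 4 passed the test for the difference, beside 0.532% of all probe sets. Each of the 4 had the higher response in gun1-1. The 22 came from 6 lists, chosen with earlier results of these data known. Photosystems and electron transport supplied 6 of 34 listed loci, light-harvesting antenna 3 of 21 and nuclear NDH subunits 3 of 19. Thylakoid calcium and ascorbate proteins supplied 3 of 3, Calvin cycle 3 of 20 and photorespiration 4 of 15. The other listed loci had no named probe set of their own. Genes of a shared process need not be independent of each other. All 22 had a difference above 0, from 0.03 to 1.25, as did 44.0% of all probe sets, and 0 were called lower. Of the 22, 7 fell in gun1-1 and 20 fell in abi4-102, beside 4.9% and 5.51% of all probe sets. With lincomycin 20 were higher in gun1-1, beside 6.02% of all probe sets, and without it 0 were called, beside 0.211%. That does not make the mutants equal without the drug. The medians of gun1-1 minus abi4-102 without lincomycin were 0.21 to 0.44 over the 6 lists. The median response was -0.31 in gun1-1 and -0.87 in abi4-102, beside -1.43 in Col-0, and the median difference was 0.54. Seedlings are a mixture of cell types, so fewer cells of a type and less RNA per cell cannot be told apart in these values.

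The 4 called members came from the lists of photosystems, nuclear NDH subunits and photorespiration. PSAE-1, a stromal subunit of photosystem I, had log2 levels of 12.04 and 12.03 in gun1-1 with lincomycin and 12.47 and 12.54 without it, against 10.77 and 10.84 in abi4-102 with lincomycin and 12.30 and 12.34 without it. The 4 groups did not overlap, and abi4-102 with lincomycin was farthest from the others. The difference was 1.04 ± 0.15 (limma adjusted p = 0.0145). PSAN, a lumenal subunit of photosystem I, fell by 1.20 in abi4-102 and had a response of -0.32 in gun1-1 that did not pass (difference 0.89 ± 0.16, limma adjusted p = 0.0423). NdhN, a nuclear-encoded subunit of the thylakoid NADH dehydrogenase-like complex, fell by 0.55 in gun1-1 and by 1.80 in abi4-102 (difference 1.25 ± 0.19, limma adjusted p = 0.0173). AT1G32470, in the photorespiration list, fell by 1.36 in abi4-102, with -0.14 in gun1-1 (difference 1.22 ± 0.19, limma adjusted p = 0.0192). These calls often failed with 1 array fewer: PSAE-1, NdhN and AT1G32470 each kept theirs in 3 of the 8 fits that left out 1 array and PSAN in 0, with PSAE-1 differences between 1.01 and 1.08 and PSAN differences between 0.82 and 0.96.

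The others did not pass, some of them near the threshold and some far from it. CaS, a thylakoid calcium-sensing protein, fell by 0.87 in gun1-1 and by 1.85 in abi4-102 (difference 0.98, limma adjusted p = 0.0714). RCA, Rubisco activase, had a difference of 0.77 (limma adjusted p = 0.083), and LHCB4.1, the CP29 antenna protein of photosystem II, also had 0.77 (limma adjusted p = 0.133). The 2 other measured LHCB4 genes had smaller values: 0.20 for LHCB4.2, with a 95% interval of -0.15 to 0.55, and 0.15 for LHCB4.3, with an interval of -0.23 to 0.53. NdhS, another subunit of the NDH complex, fell by 0.56 in gun1-1 and by 0.59 in abi4-102, a difference of 0.03 with an interval of -0.36 to 0.42. NdhN and NdhS thus had different values within 1 complex, although the 2 genes were not tested against each other.

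Among genes of tetrapyrrole synthesis, the route to chlorophyll and haem, 0 of 9 were called, 8 had a difference above 0, and the median was 0.47. HEME1, a uroporphyrinogen decarboxylase, rose by 0.53 in gun1-1 and had -0.37 in abi4-102, which did not pass (difference 0.90, limma adjusted p = 0.0741). PORB, a protochlorophyllide oxidoreductase, fell by 1.56 in gun1-1 and by 1.45 in abi4-102, and its difference of -0.11 had a 95% interval of -0.58 to 0.36. For the 9 nuclear genes of plastid ribosomes and translation, 0 were called and the median difference was 0.38. Over all probe sets 0.532% were called, so 0 calls among 9 genes say little. Cpn60beta2, a subunit of the plastid chaperonin, fell by 1.10 in abi4-102 and had -0.20 in gun1-1 (difference 0.90, limma adjusted p = 0.0688), while the difference for Cpn60beta3 was -0.05. GSTU18 was the 1 called gene of 14 glutathione transferases, a family of detoxification enzymes. It had log2 levels of 8.76 and 8.66 in gun1-1 with lincomycin and 8.67 and 8.57 without it, against 7.09 and 6.84 in abi4-102 with lincomycin and 8.42 and 8.18 without it. Its fall of 1.34 in abi4-102 had no called counterpart in gun1-1, where the response was 0.09 (difference 1.43 ± 0.18, limma adjusted p = 0.0119). Without abi4-102 -lincomycin replicate 1 its adjusted p was 0.053.

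**Figure D3:**
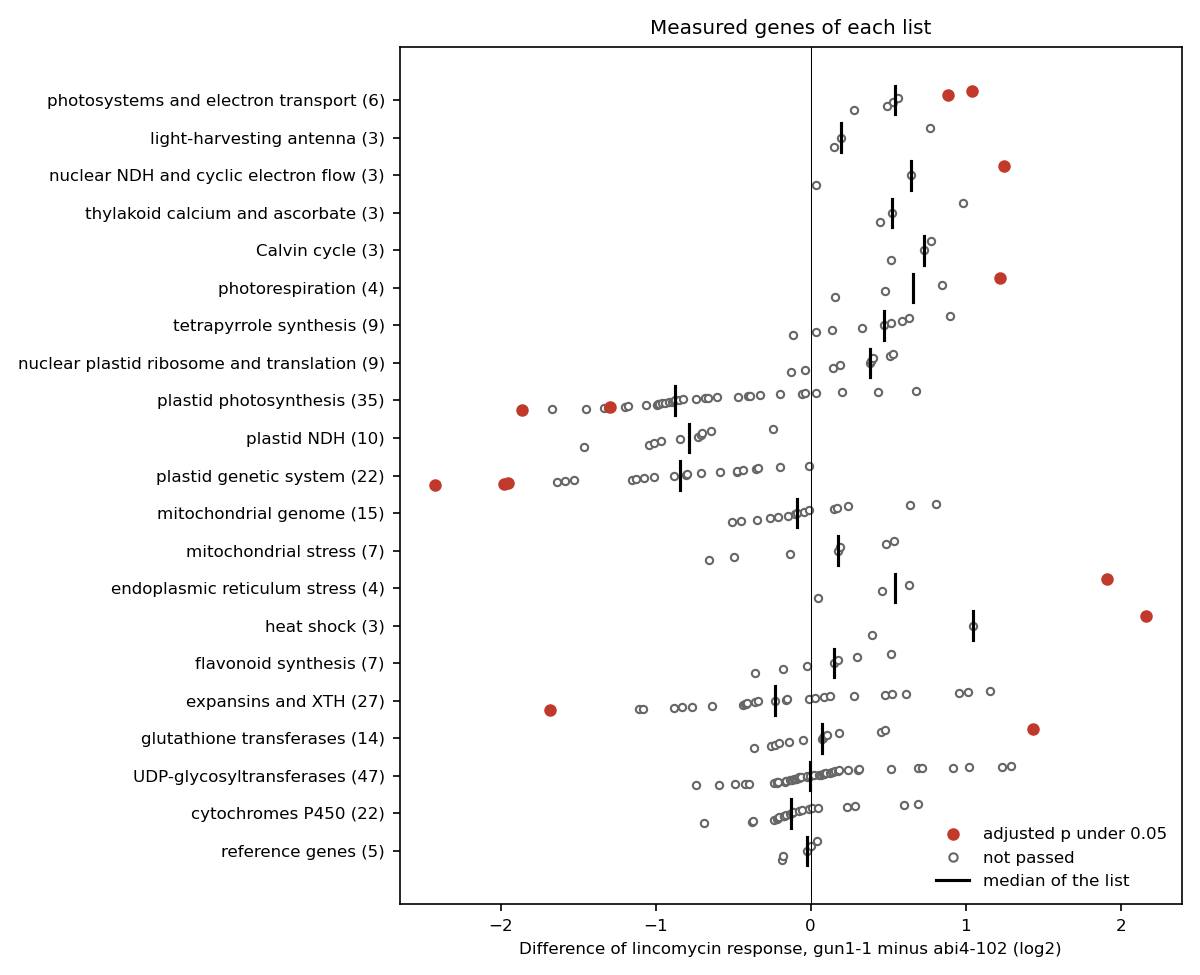
Difference of lincomycin response, gun1-1 minus abi4-102 (log2, horizontal axis), of each measured gene (points) in 21 lists, with the number of genes in parentheses, list medians as bars and genes at an adjusted p under 0.05 filled. All 22 genes of the 6 nuclear photosynthesis lists at the top lie right of 0, and most genes of the 3 plastid-encoded lists lie left of it.

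Differences of plastid-encoded transcripts were mostly below 0. Of 69 named plastid-encoded genes, 65 (94.2%) had a difference below 0, beside 56.0% of all probe sets. Called lower were 5 and called higher 0, beside 0.145% and 0.387% of all probe sets. The median difference was -0.87, with median responses of -0.26 in gun1-1 and 0.40 in abi4-102, beside -0.26 in Col-0. With lincomycin 45 were lower in gun1-1 than in abi4-102 and 0 higher, beside 4.87% and 6.02% of all probe sets. Without it 0 were called, beside 0.211% of all probe sets. The median of gun1-1 minus abi4-102 without lincomycin was -0.25. Of the 69, 8 rose and 22 fell in gun1-1, beside 5.79% and 4.9% of all probe sets. In abi4-102, 23 rose and 13 fell, beside 7.65% and 5.51%. The median log2 level over the 69 genes was 8.29 and 8.13 in gun1-1 with lincomycin and 8.80 and 9.25 without it, against 9.34 and 9.58 in abi4-102 with lincomycin and 9.36 and 9.07 without it. The gun1-1 arrays with lincomycin were thus the lowest, and the values of abi4-102 without lincomycin overlapped those of both other groups. These genes share 1 genome and many are transcribed together, so they are not independent of each other.

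The largest plastid differences lay in a run of ribosomal protein genes. In the order of the plastid genome, rpoA, rpl36, rpl14, rpl16, rps3, rpl22 and rps19 follow one another among the genes measured by name. rpl36, for a large-subunit ribosomal protein, had log2 levels of 8.96 and 8.77 in gun1-1 with lincomycin and 7.94 and 8.52 without it, against 10.45 and 10.73 in abi4-102 with lincomycin and 7.66 and 7.40 without it. Both mutants had higher levels with the drug, and the gun1-1 arrays with it lay below those of abi4-102. The response of 0.64 in gun1-1 did not pass, and the rise in abi4-102 was 3.06 (difference -2.42 ± 0.29, limma adjusted p = 0.0103, called in all 8 fits that left out 1 array). rpl14 rose in both, by 1.21 in gun1-1 and by 3.19 in abi4-102 (difference -1.98 ± 0.33, limma adjusted p = 0.03). rpl16 rose by 0.88 in gun1-1 and by 2.83 in abi4-102 (difference -1.95 ± 0.30, limma adjusted p = 0.0192). Their calls held in 2 and 4 of the 8 fits that left out 1 array. The neighbours rpl22 (-1.53, limma adjusted p = 0.052) and rpoA (-1.59, limma adjusted p = 0.11) did not pass, nor did rps3 (-1.01) and rps19 (-0.80).

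The plastid RNA polymerase and photosynthesis genes divided differently. rpoC1 and rpoC2, which encode subunits of that polymerase, rose in both mutants, rpoC1 by 1.74 in gun1-1 and 2.22 in abi4-102 and rpoC2 by 2.18 in gun1-1 and 2.61 in abi4-102, and neither difference passed. The other 2 polymerase genes passed the test in abi4-102 and not in gun1-1: rpoA rose by 1.58, with -0.01 in gun1-1, and rpoB by 1.80, with 0.92 in gun1-1. Their differences did not pass either. rps2, a small-subunit ribosomal protein gene, rose by 1.41 in gun1-1 and by 1.42 in abi4-102, and its difference of -0.01 had a 95% interval of -0.45 to 0.43. Of 35 photosynthesis genes, 16 fell and 0 rose in gun1-1, and 11 fell and 5 rose in abi4-102. Over all probe sets 4.9% fell and 5.79% rose in gun1-1, and 5.51% fell and 7.65% rose in abi4-102. psaJ, for a small subunit of photosystem I, had 8.28 and 8.51 in gun1-1 with lincomycin and 10.83 and 10.99 without it, against 10.52 and 10.48 in abi4-102 with lincomycin and 11.15 and 11.16 without it. It fell in both mutants and farther in gun1-1, by 2.52 against 0.65 in abi4-102 (difference -1.86 ± 0.17, limma adjusted p = 0.00159, called in all 8 fits that left out 1 array). petA, for cytochrome f, fell by 0.48 in gun1-1 and rose by 0.81 in abi4-102 (difference -1.29 ± 0.17, limma adjusted p = 0.0124, called in 6 of the 8 fits). It was not called without abi4-102 -lincomycin replicate 2 or without abi4-102 +lincomycin replicate 1, where its adjusted p was 0.062 and 0.053.

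Some plastid genes showed little difference or were too variable to tell. rbcL, the large subunit of Rubisco, had 8.65 and 8.59 in gun1-1 with lincomycin and 8.28 and 8.23 without it, against 9.04 and 9.13 in abi4-102 with lincomycin and 8.98 and 8.53 without it. Its difference of 0.03 had a 95% interval of -0.68 to 0.75. psbA, for the D1 protein of photosystem II, had a difference of -0.66 with an interval of -1.98 to 0.65. The 4 genes with a difference above 0 were psbI, psbK, psbN and rbcL, and none of them passed. Among the 10 plastid NDH genes 0 were called and the median was -0.78, while the nuclear NDH subunit NdhN had the opposite sign. The 15 named genes of the mitochondrial genome had 0 calls and a median difference of -0.09. Over all probe sets 0.532% were called, so 0 calls in lists of 10 and 15 genes say little.

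**Figure D4:**
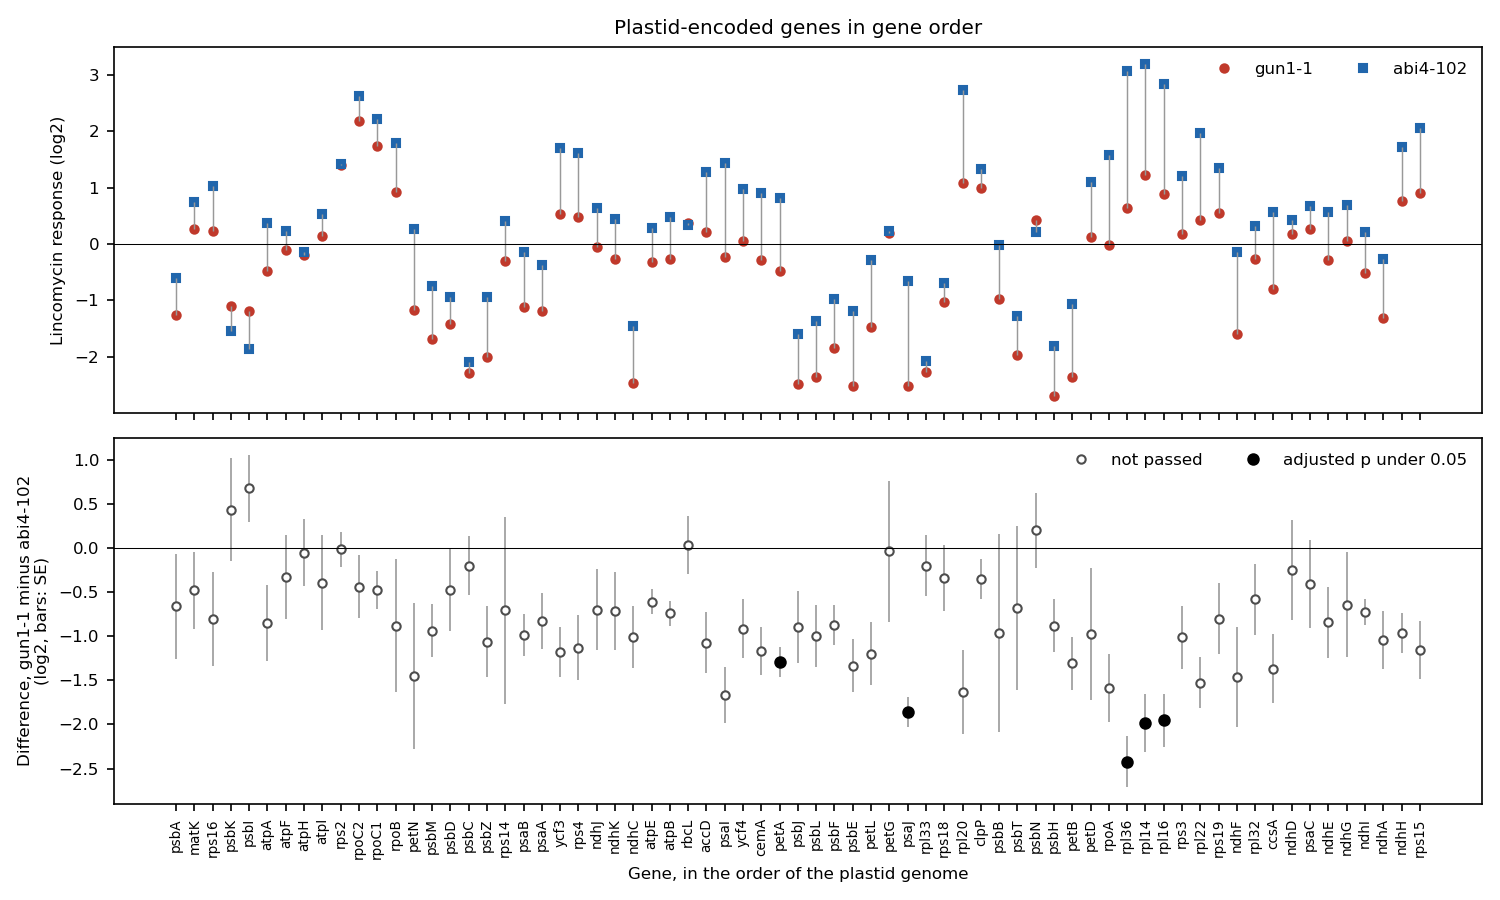
Lincomycin responses (log2) of the named plastid-encoded genes in gun1-1 (circles) and abi4-102 (squares) in the upper panel, and the difference, gun1-1 minus abi4-102, with its SE in the lower panel, in the order of the plastid genome. The 5 filled points, petA, psaJ, rpl36, rpl14 and rpl16, passed the test, and 65 of 69 differences lie below 0.

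Among nuclear genes with a lower response in gun1-1 was EXPA4, an expansin that loosens cell walls. Of all 33 probe sets with a lower response, 13 fell in gun1-1 and did not pass in abi4-102, 10 rose in abi4-102 and did not pass in gun1-1, 5 fell in gun1-1 and rose in abi4-102, 4 rose in both and 1 fell in both. Every one of the 33 was lower in gun1-1 with lincomycin, and 0 were called without it. As for the 88, these counts follow largely from how the 33 were chosen. EXPA4 had log2 levels of 7.27 and 7.04 in gun1-1 with lincomycin and 8.48 and 8.37 without it, against 9.04 and 8.60 in abi4-102 with lincomycin and 8.63 and 8.18 without it. It fell by 1.27 in gun1-1 and its response of 0.41 in abi4-102 did not pass (difference -1.68 ± 0.26, limma adjusted p = 0.0192, called in 3 of the 8 fits that left out 1 array). It was the 1 called member of 27 expansins and xyloglucan endotransglucosylases, beside 0.532% of all probe sets. Of the 27, 8 fell and 1 rose in gun1-1, beside 4.9% and 5.79% of all probe sets. In abi4-102, 3 fell and 0 rose, beside 5.51% and 7.65%. The list's median difference was -0.23.

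Other named genes of this direction carry only locus identifiers in the annotation used. AT1G67860 rose by 1.91 in abi4-102, with 0.26 in gun1-1 (difference -1.66 ± 0.18, limma adjusted p = 0.00777, called in all 8 fits that left out 1 array). AT1G67865, whose identifier is close to it, fell by 1.35 in gun1-1, with 0.31 in abi4-102 (difference -1.65 ± 0.24, limma adjusted p = 0.0173). The pair therefore had nearly the same difference from different responses. AT1G67750 fell by 0.70 in gun1-1 and rose by 0.90 in abi4-102 (difference -1.60 ± 0.23, limma adjusted p = 0.0148), and with petA it is 1 of the 2 named genes among the 5 probe sets of that kind. Its call held in 4 of the 8 fits that left out 1 array, and that of AT1G67865 in 1.

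The Col-0 arrays, which enter the estimate of spread and not the difference itself, gave another response to set beside those of the mutants. Among the 88 probe sets with a higher response in gun1-1, the Col-0 response was nearer to that of abi4-102 in 86, and it lay beyond that of abi4-102 in 66. Among the 33 with a lower response, it was nearer to abi4-102 in 27 and lay between the mutants in 28. Of all probe sets, 57.1% had a Col-0 response nearer to that of abi4-102. Of the 69 plastid-encoded genes this held for 37 (53.6%), and their Col-0 median was next to that of gun1-1. AT3G28270, for example, had responses of -1.39 in gun1-1, -4.64 in abi4-102 and -5.95 in Col-0. Its mean log2 level with lincomycin was 3.93 in Col-0 and 3.89 in abi4-102, and without it 9.88 in Col-0 and 8.54 in abi4-102. The larger fall in Col-0 thus started from a higher level and did not end at a lower one. For AT1G18830 the responses were 3.51 in gun1-1, 1.60 in abi4-102 and 1.64 in Col-0. AT2G13160 was an exception, with -0.38 in gun1-1, 1.40 in abi4-102 and -0.44 in Col-0.

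Probe sets were also chosen by their change in Col-0, called in the same fit, whose estimate of spread uses all 12 arrays. Lincomycin changed 3948 probe sets (17.4%) in Col-0, 2139 upward (9.4%) and 1809 downward (7.95%). Over the 1809 that fell, the median response was -0.25 in gun1-1, with -0.31 to -0.20 over the 4 pairings of arrays, and -0.50 in abi4-102, with -0.59 to -0.43. The pairings did not overlap. The median difference was 0.27, and 72.5% of the 1809 had a difference above 0. Over the 609 that fell at least 2-fold in Col-0, the medians were -0.41 in gun1-1 and -0.93 in abi4-102, and 81.8% of the differences were above 0. The 2139 that rose in Col-0 had medians of 0.35 in gun1-1 and 0.45 in abi4-102, with 32.8% of the differences above 0. Both mutants thus had the same sign of median response as Col-0, and the gun1-1 median was the smaller each way.

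**Figure D5:**
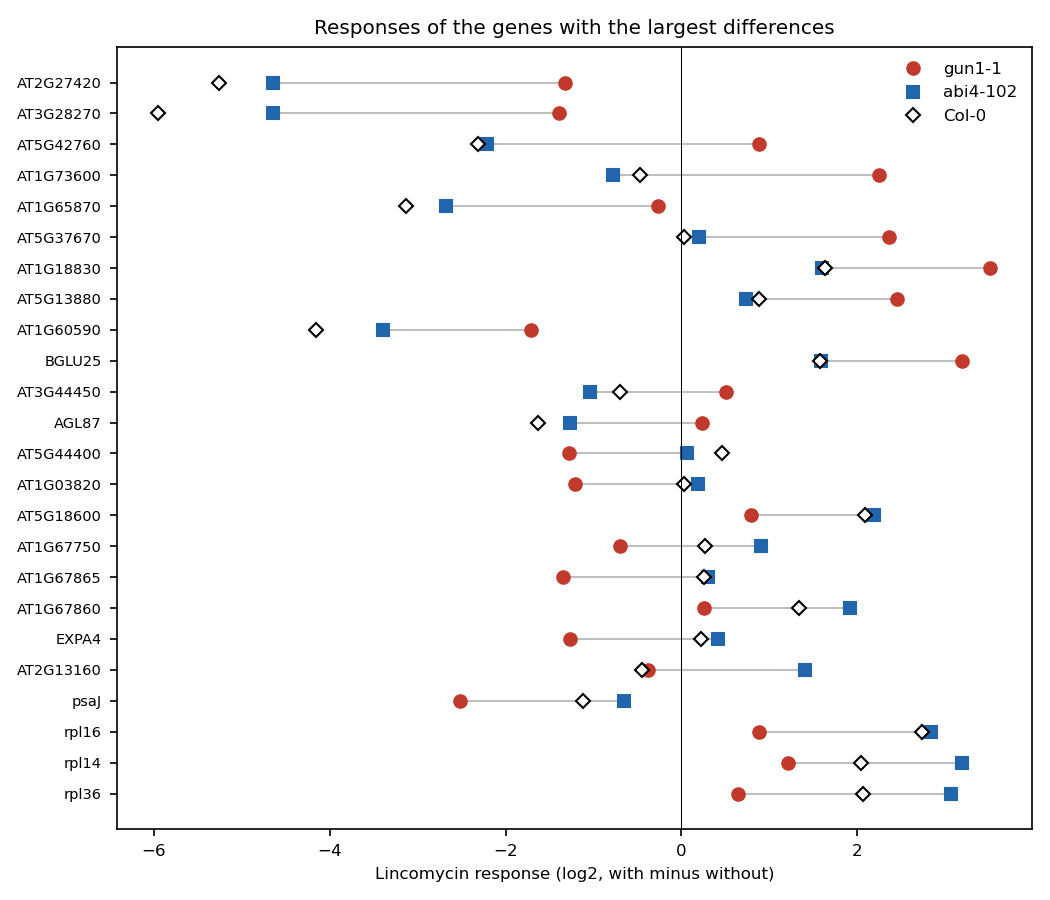
Lincomycin responses (log2, with minus without) in gun1-1 (circles), abi4-102 (squares) and Col-0 (diamonds) of the genes with the 12 largest positive and 12 largest negative called differences, ordered by the difference. For AT2G27420, AT3G28270 and AT1G60590 the Col-0 response lies beyond that of abi4-102, and for AT1G18830, BGLU25 and AT5G42760 it lies beside it. In AT2G27420, AT3G28270 and AT1G60590 the mean log2 levels without lincomycin were 8.70, 9.88 and 9.25 in Col-0 against 8.12, 8.54 and 8.33 in abi4-102. With lincomycin they were 3.43, 3.93 and 5.10 in Col-0 against 3.48, 3.89 and 4.93 in abi4-102.

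A further set of genes differed between the mutants with and without the drug, and their difference of response did not pass. QQS, a gene named for its effect on leaf starch, had log2 levels of 3.58 and 3.48 in gun1-1 with lincomycin and 3.44 and 3.55 without it, against 7.37 and 7.59 in abi4-102 with lincomycin and 6.80 and 6.94 without it. It was lower in every gun1-1 array than in every abi4-102 array, by 3.96 with lincomycin and by 3.38 without it, while its difference of response was -0.58 (limma adjusted p = 0.212). The gun1-1 values of QQS were low, and RMA shrinks differences of dim probe sets, so its response in gun1-1 may be muted. LCR68, a small cysteine-rich protein gene, was 2.03 higher in gun1-1 than in abi4-102 with lincomycin and 2.09 higher without it. Its mean log2 levels with and without lincomycin were 9.16 and 9.69 in gun1-1, 7.13 and 7.59 in abi4-102, and 9.33 and 9.17 in Col-0. AT2G15560 was lower in gun1-1 both with (-3.24) and without lincomycin (-2.80).

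Lists without a called difference included 7 mitochondrial stress genes, 22 cytochromes P450, 47 UDP-glycosyltransferases, 8 cellulose synthases, 7 flavonoid genes, 6 WRKY factors and 4 abscisic acid and dehydration genes, each with 0 calls. Over all probe sets 0.532% were called, so 0 calls in lists of these sizes do not set them apart. In the mitochondrial stress list AT2G21640 rose by 2.41 in gun1-1 and by 2.54 in abi4-102, with a difference of -0.14 and a 95% interval of -0.76 to 0.49. AT2G04050 rose by 2.30 in gun1-1 and by 2.95 in abi4-102 (difference -0.65, interval -1.46 to 0.16). The 5 reference genes had differences between -0.19 and 0.04, and none passed. The smallest called difference of any probe set was 0.80 in size, and smaller ones did not pass with this number of arrays.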

How the data were processed

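The deposited table holds log2 values that the authors made with RMA, per the submitters' processing notes. RMA corrects background, equalises array distributions and summarises probes, so a change in total mRNA is not seen and differences of dim probe sets shrink. Not given in the sources used here were the RMA version and implementation and the priming of plastid transcripts. Per the labels, the treatment protocol gives 220 µg/ml of lincomycin, whereas the source name gives 200.

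After leaving out 64 controls, limma 3.58.1 in R 4.3.3 (lmFit, eBayes) was fitted to 22746 probe sets on all 12 arrays with 6 group means (6 residual degrees of freedom), two-sided, with Benjamini-Hochberg adjusted p under 0.05 called. The contrast was (gun1-1 with minus without lincomycin) minus (abi4-102 with minus without). The script was tested on simulated data. Annotation named 1 gene for 13513 probe sets, several for 503 and none for 8730. Gene names and plastid order came from a TAIR10.1 gene table, and a gene was read from its brightest own probe set. No identical arrays were found (0 of 6 replicate pairs). The number of arrays limits the precision.

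Named genes were psbA and rbcL, the 12 largest called differences each way among probe sets naming 1 gene whose 4 with-minus-without array pairings did not overlap between the mutants, genes with opposite called responses, the leading members of each list, and the 5 largest differences between the mutants each way with and without lincomycin. The text prints part of them. Members and lists were chosen with earlier results of these data known, and no list was tested as a set. Alternatives were the replicate block, only the 8 mutant arrays, an intensity trend with robust prior, array weights, median centring, quantile normalization, the upper 60% of probe sets by mean, probe sets naming 1 gene, a minimum log2 difference of 1, and leaving out each array. A planned promoter motif search was not run, since no sequence table was used here.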

Additional observations from a re-analysis of the deposited data

Results flagged for a closer look

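The difference of lincomycin response between gun1-1 and abi4-102 was itself a test of whether 2 groups respond differently, and 88 probe sets passed it with the higher response in gun1-1 and 33 with the lower (limma, adjusted p under 0.05). Among the named genes that passed, 4 had called responses of opposite sign. AT1G73600 (difference 3.03) and AT5G17670 (1.06) rose in gun1-1 and fell in abi4-102. petA (-1.29) and AT1G67750 (-1.60) fell in gun1-1 and rose in abi4-102. Each group held 2 arrays, too few to look for a single outlying array within a group.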

How the results depend on the processing

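All 31 named genes with a called difference kept its sign under each alternative that included them, and 8 kept the call in all 8 fits that left out 1 array. Such a fit assumes that the lone remaining array varies like the other groups. The 121 called differences became 54 in a fit of only the 8 mutant arrays, 205 with an intensity trend and robust prior, 76 with array weights, 44 among probe sets that name 1 gene, and 20 to 104 without 1 array. For lincomycin in gun1-1 the count of 2432 became 1587 with array weights, 1252 among probe sets naming 1 gene, 435 (197 higher and 238 lower) at a log2 difference of at least 1, and 1145 to 2485 without 1 array. In abi4-102 the 2993 became 1588 among probe sets naming 1 gene, 503 (194 higher and 309 lower) at a log2 difference of at least 1, and 1156 to 3070 without 1 array. With lincomycin, the 2478 probe sets that differed between the mutants became 1531 with array weights, 1295 among those naming 1 gene, 559 at a log2 difference of at least 1, and 1450 to 2468 without 1 array. Without lincomycin the 48 became 28 with only the 8 arrays, 78 with an intensity trend, 95 with array weights, 24 among those naming 1 gene, and 18 to 63 without 1 array. Fewer probe sets or arrays entered some of these fits, and the cause of the other shifts was not tested. Centring each array on its median moved the share higher in gun1-1 with lincomycin to 65.6%, against 55.3% as reported. With the replicate number as a block 85 differences were called, 82 of them shared with the reported fit. Replicate differences of the groups correlated between -0.24 and 0.28, which does not show that equal numbers mark paired samples, and a shared culture or batch was not tested.

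In alternatives chosen after seeing the data, the median difference over probe sets that fell in Col-0 was 0.30 after median centring, 0.29 after quantile normalization and 0.21 to 0.31 without 1 array, and that of plastid-encoded genes -0.84, -0.85 and -1.02 to -0.68. Other scalings, averaging all probe sets of a gene and leaving out 1 array moved the median of 1 gene list with 3 or more measured members past its replicate spread: the heat shock median was 1.495 without abi4-102 +lincomycin replicate 1 and 0.60 without replicate 2. Depth is not defined for arrays, and transcripts near background may have muted differences.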
